A study of Mus musculus with 4 samples.

Results

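Npy and Cpe positive Epcam-low epithelial cells are keratin-bearing cells from tumors, with little Epcam transcript. They have a raised sum of 3 neuroendocrine genes, Npy, Cpe and Ptprn. They were selected on measured values, from single-cell libraries of pancreatic tumors, by thresholds on raw UMIs (unique molecular identifiers, which count each captured transcript once). A cell was kept with 500 or more genes and at most 10% mitochondrial UMIs. A kept cell was a member with Krt8 plus Krt18 at 20 or more UMIs per 10000, Epcam under 3 per 10000, no UMI of Ptprc (CD45, the leukocyte antigen), at most 1 of 4 mesothelial genes and under 5 of 8 cell-cycle genes detected, and Npy, Cpe and Ptprn together at 5 or more per 10000. This last sum is called the score. The rule gave 796 members among 7984 kept cells, of 8282 deposited barcodes. Members numbered 428 in the library sorted CAF 1, 356 in all live 1, 9 in sorted CAF 2 and 3 in all live 2.

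All cells came from pancreatic tumors of KPC mice on a C57BL/6J background (Trp53LSL-R172H/+; Pdx1-Cre, with 1 further allele), in which Cre under the Pdx1 promoter switches on mutant p53 in the pancreatic lineage. Each of 2 tumors was sorted into a cancer-associated fibroblast (CAF) fraction, gated as negative for DAPI, CD45, CD31 and EpCAM and positive for podoplanin (PDPN), and an all live fraction of all DAPI-negative cells. There was 1 library per tumor and fraction, so the 2 libraries of a tumor are fractions of it and not replicates, and p-values between the fractions could not be had. Normal pancreas was not analysed here, and the ages of the mice are not stated in the sources used here.

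The library labelled sorted CAF 1, named here by that label, went against it: it held 779 non-cycling and 248 cycling Epcam-low epithelial cells against 247 fibroblasts. Pdpn, the gene of the gating antigen, had a UMI in 1.64% of its members and in 78.9% of its fibroblasts. The gate names EpCAM, while the stain listed in the labels has antibodies to CD31, CD45, PDPN and PDGFRa. Sorted CAF 2 held 942 fibroblasts among 1222 kept cells. All live 1 held 724 non-cycling and 239 cycling Epcam-low cells, and all live 2 held 23 and 4. Any 2 libraries shared between 4 and 6 barcodes, none of them between members. The median kept cell had 13886.5 UMIs in sorted CAF 1, 10784 in all live 1, 10765.5 in sorted CAF 2 and 3336 in all live 2.

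Neuropeptide Y, the product of Npy, is a secreted peptide of neurons and of some endocrine cells. Peptide hormones are cut from precursors inside dense-core granules, where carboxypeptidase E (Cpe) trims the basic residues left at the cut ends, and Ptprn (IA-2) is a protein of the granule membrane. Onecut2 is a homeodomain transcription factor of the developing liver and pancreas. Krt8 and Krt18 are the paired keratins of simple epithelia.

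The neuroendocrine part of the label rested on few genes. Chga and Chgb, the chromogranins that define dense-core granules, had 1 and 0 UMIs summed over the 428 members of sorted CAF 1, and 1 and 1 over the 356 of all live 1. The transcription factors Neurod1, Neurog3, Nkx2-2 and Isl1 had no UMI in members of either library. Of the 16 neuroendocrine transcription factors listed, 10 were at 0 in members of sorted CAF 1 and 11 in those of all live 1. Syp, the synaptophysin gene, stood at 0.313 and 0.319 CPM (UMIs summed over the cells of a set, as counts per 1000000 UMIs of that set) in the members of these libraries. The epithelial part rests on Krt8 and Krt18 by the rule, and Krt19 and Cdh1, which the rule did not use, stood at 1907 and 1841 CPM and at 113 and 122 CPM in members. Members are therefore described here by their genes, as Npy and Cpe positive, and not as a neuroendocrine cell type.

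Promoter sequences are shown for Npy, which helped to choose the cells and has neither of the motifs searched, and for a pair of matrix and cytoskeleton genes, Ecm1 and Cald1, that were higher in members. The Ecm1 promoter holds 1 of the motifs and the Cald1 promoter both. Capitals mark matches to the AP-1 motif TGANTCA or the Onecut core ATTGAT, each searched on both strands. They run 5′ to 3′ on the gene's strand, from RefSeq on GRCm38.p6.
Npy, chr6:49822460-49822759, plus strand: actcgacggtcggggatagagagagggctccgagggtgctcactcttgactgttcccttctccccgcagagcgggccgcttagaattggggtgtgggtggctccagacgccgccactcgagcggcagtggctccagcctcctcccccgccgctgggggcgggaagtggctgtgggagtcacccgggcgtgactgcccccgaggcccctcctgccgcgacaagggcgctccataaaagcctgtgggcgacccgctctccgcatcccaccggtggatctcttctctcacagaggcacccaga
Ecm1, chr3:95739520-95739819, minus strand: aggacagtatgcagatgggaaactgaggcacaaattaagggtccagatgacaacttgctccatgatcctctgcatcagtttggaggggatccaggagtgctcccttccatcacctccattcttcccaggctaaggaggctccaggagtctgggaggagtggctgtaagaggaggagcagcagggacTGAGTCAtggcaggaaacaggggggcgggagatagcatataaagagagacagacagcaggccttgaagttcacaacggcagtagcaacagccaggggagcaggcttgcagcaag
Cald1, chr6:34709194-34709493, plus strand: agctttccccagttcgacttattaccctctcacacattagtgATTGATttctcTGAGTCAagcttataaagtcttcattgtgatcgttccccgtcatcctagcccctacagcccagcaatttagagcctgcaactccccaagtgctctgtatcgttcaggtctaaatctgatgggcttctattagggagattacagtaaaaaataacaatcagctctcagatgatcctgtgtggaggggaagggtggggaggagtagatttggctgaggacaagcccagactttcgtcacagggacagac
The AP-1 motif was in 12 of 89 promoters (13.5%) of the genes higher in members, in 1 of 22 (4.55%) of those lower, and in 7.81% of the 32851 promoters of the table. The Onecut core was in 6 of 89 (6.74%), 4 of 22 (18.2%) and 7.54%. Among the 6 are 2 overlapping promoters of Tfr2 that share 1 match. The 2 motifs do not overlap in the Cald1 promoter. A match is a run of letters, not a bound site. Cpe, Fn1 and Lbp are without a sequence here.

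The score chose the cells, so its values are given without a test. Its median was 11.5 per 10000 over the members of both tumor 1 libraries, with highest values of 94.5 in sorted CAF 1 and 143 in all live 1. In the remaining Epcam-low non-cycling cells, called the other Epcam-low cells below (351, 368, 61 and 20 in sorted CAF 1, all live 1, sorted CAF 2 and all live 2), the median was 2.83 and 2.59 in the libraries of tumor 1. The threshold cut a continuous distribution with no gap. Just inside it, from 5 to under 6 per 10000, lay 43 members of sorted CAF 1 and 55 of all live 1, with medians of 8 and 7 Cpe UMIs. Just outside, from 4 to under 5, lay 83 and 62 cells with medians of 7 and 6 Cpe UMIs, and the median Npy count was 0 on both sides.

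**Figure D1:**
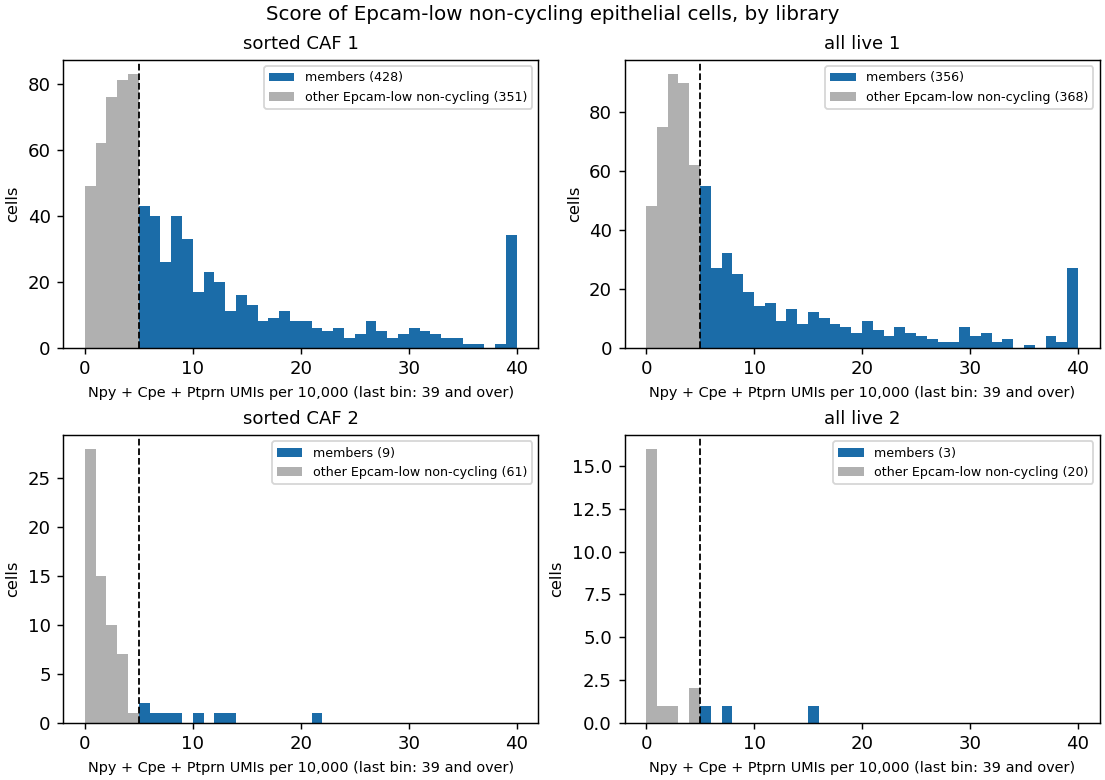
Number of Epcam-low non-cycling epithelial cells (vertical axis) by their summed Npy, Cpe and Ptprn UMIs per 10000 (horizontal axis), in the 4 libraries. Members are blue, other Epcam-low cells grey, and the dashed line is the threshold of 5; the distribution runs through the threshold without a gap, and tumor 2 has 9 and 3 members.

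Cpe carried most of the score. It gave 72.2% of the score UMIs of the members of sorted CAF 1 and 67.9% in all live 1, Npy 18.7% and 21.3%, and Ptprn 9.15% and 10.9%. Cpe had a UMI in 99.8% and 99.7% of members, but also in 84.3% and 87.5% of the other Epcam-low cells. Npy was found in 57.2% and 62.6% of members and in 18.2% and 23.1% of the other cells. Npy alone reached 5 per 10000 in 65 members of each library, while 183 members of sorted CAF 1 and 133 of all live 1 had no Npy UMI at all. Its UMIs were concentrated: the 43 and 36 members with most Npy held 63.1% and 62.8% of them, while those with most Cpe held 30.0% and 30.8% of its UMIs. The name Npy and Cpe positive thus fits, cell by cell, 57.0% of members in sorted CAF 1 and 62.4% in all live 1, those with a UMI of both genes.

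Summed over cells, Npy stood at 284 CPM (95% Poisson interval 271 to 297) in members of sorted CAF 1 and 327 (313 to 342) in members of all live 1, against 15.3 and 19.2 in the other Epcam-low cells. Cpe stood at 1098 and 1045 in members, against 222 and 195 in the other cells, and Ptprn at 139 and 167 in members, against 53.2 and 56.7. Onecut2, which the rule did not use, stood at 542 (524 to 561) and 616 (597 to 636) in members, against 316 and 346 in the other cells. That is a log2 ratio of 0.77 in sorted CAF 1 and 0.82 in all live 1, short of 2-fold. Krt18 differed little, at 6163 and 5789 in members, against 6108 and 5933 in the other cells.

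Members made up 54.9% (95% Clopper-Pearson interval 51.4 to 58.5) of the Epcam-low non-cycling cells of sorted CAF 1 and 49.2% (45.5 to 52.9) of those of all live 1. The shares were 12.9% (6.05 to 23) in sorted CAF 2 and 13% (2.78 to 33.6) in all live 2. Within each tumor the intervals of the 2 fractions overlap, while the intervals of tumor 1 lie above those of tumor 2. With 1 tumor on each side there is no test of that difference. Of all kept cells, members were 30.5% of sorted CAF 1, 18.4% of all live 1, 0.736% of sorted CAF 2 and 0.0875% of all live 2. The digestion and the gate act on these shares too, and their part was not tested.

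The few members of tumor 2 are described by their UMI counts. The 9 members of sorted CAF 2 held 112 Cpe UMIs in 8 cells, 21 Npy UMIs in 4 cells and 44 Onecut2 UMIs in 4 cells. The 3 members of all live 2 held 13 Npy UMIs, 1 Cpe UMI and 1 Ptprn UMI. Npy alone reached 5 per 10000 in 2 of them, and no single gene did in the other. Spp1 had 1308 and 37 UMIs in members of sorted CAF 2 and all live 2, Fn1 69 and 14, and Trf and Gkn2 none in either. Their median Malat1 level was 1.70 and 0 per 10000, against 72.0 and 14.1 in the other Epcam-low cells of those libraries. The median mitochondrial share of the members of sorted CAF 2 was 6.08%, against 4.24% in its other Epcam-low cells, and that of all live 2 was 3.48%, against 1.28%. These 12 cells enter no fold below.

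Beyond the selecting genes, members of tumor 1 had higher levels of Fn1, Lbp, Trf and Spp1, among others, and lower levels of Gkn2, Lgals4, Aqp5 and Phlda2 than the other Epcam-low cells. Of 10490 genes measured, 93 were at least 2-fold higher in members in both libraries (0.887%) and 23 at least 2-fold lower (0.219%). Because the cells were proposed from their own expression, these folds are a description and carry no test. In direction alone, 4594 of the 10490 were higher in members in both libraries and 3646 lower. One library alone gave 129 higher genes in sorted CAF 1 and 160 in all live 1, of which the 93 are 72.1% and 58.1%. For lower genes the 23 shared are 51.1% of 45 and 48.9% of 47. Levels below are in CPM, given for sorted CAF 1 and then all live 1.

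A nuclear transcript and depth moved with membership. Malat1, a long noncoding RNA retained in the nucleus and itself one of the higher genes, had a median of 328 and 222 per 10000 UMIs in members, against 96.5 and 65.0 in the other Epcam-low cells. The median depth was 13700.5 and 15538 UMIs in members, against 18335 and 17987 in the other cells. Cells were split at the median Malat1 level of the Epcam-low non-cycling cells of each library. In cells under it (132 and 104 members, against 257 and 258 other cells), 10 genes were 2-fold higher and 7 lower. There 67 of the 93 could be measured, of which 65 were still higher in members in both libraries, 7 of them 2-fold, with median log2 ratios of 0.67 and 0.74. All 23 lower genes were still lower there, 4 of them 2-fold. The members of that subset also had lower scores, with medians of 8.81 and 7.62. In cells with Malat1 at or over the median, 64 of the 93 and 10 of 19 measured lower genes were 2-fold. In cells of 10000 to 25000 UMIs, 83 of the 93 and 13 of the 23 were. The part of Malat1 in the differences was not tested.

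Fn1, which encodes the matrix glycoprotein fibronectin, ranked first among the higher genes by the smaller of its ratios in the libraries. It was at 195 (184 to 206) and 261 (248 to 274) in members, against 17.0 (14 to 20.4) and 37.4 (33.2 to 41.9) in the other Epcam-low cells, a log2 ratio of 3.19 and 2.65. Spp1, the gene of the secreted phosphoprotein osteopontin, was at 8798 and 7727 in members, against 2124 and 1928 in the other cells (log2 2.05 and 2.00). Summed over cells, the levels of members and of other cells lie apart for both genes in both libraries. Cell by cell the sets overlapped. Each cell was also thinned at random to the same number of UMIs. Fn1 then had a UMI in 32.9% and 40.7% of members, against 5.41% and 9.78% of the other cells. Spp1 had one in 85.0% and 86.5% of members, against 84.6% and 81.5%.

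Other higher genes encode secreted or matrix proteins. Trf, the iron carrier transferrin, was at 375 and 488 in members, against 75.8 and 75.6 in the other cells. Lbp, which binds bacterial lipopolysaccharide, was at 69.7 and 101 in members, against 7.21 and 7.55. The matrix proteins Ecm1 and Fbln2 were at 183 and 179, and at 105 and 112, in members, against 47.4 and 45.9, and 27.5 and 25.7, in the other cells. Tgm2, a transglutaminase that crosslinks proteins, reached 88.2 and 86.0 in members, against 15.6 and 16.9. Vegfc, the growth factor of lymphatic vessels, stood at 23.4 and 26.6 in members, against 3.90 and 1.79. Each of these 6 genes was higher in members by a log2 ratio between 1.67 and 3.08.

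Receptors and channels linked with nerve and muscle were among the 15 leading genes. Ramp1, a subunit of the receptor for calcitonin gene-related peptide, was at 36.0 and 35.9 in members, against 2.85 and 4.35 in the other Epcam-low cells. Piezo2, a mechanically gated ion channel, was at 41.1 and 34.6 in members, against 4.80 and 4.35. Chrna1, the alpha subunit of the muscle acetylcholine receptor, was at 23 and 18.2, against 2.25 and 1.02. A UMI of Chrna1 was found in 17.8% and 15.2% of members, in 3.13% and 1.90% of the other cells, and in no fibroblast of either library. The others of the 15 were Cxxc5, Cald1, Tnfrsf23 and Try5, with log2 ratios between 1.78 and 2.62. Try5 UMIs sat in 4.21% and 3.65% of members, so few cells set its level.

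**Figure D2:**
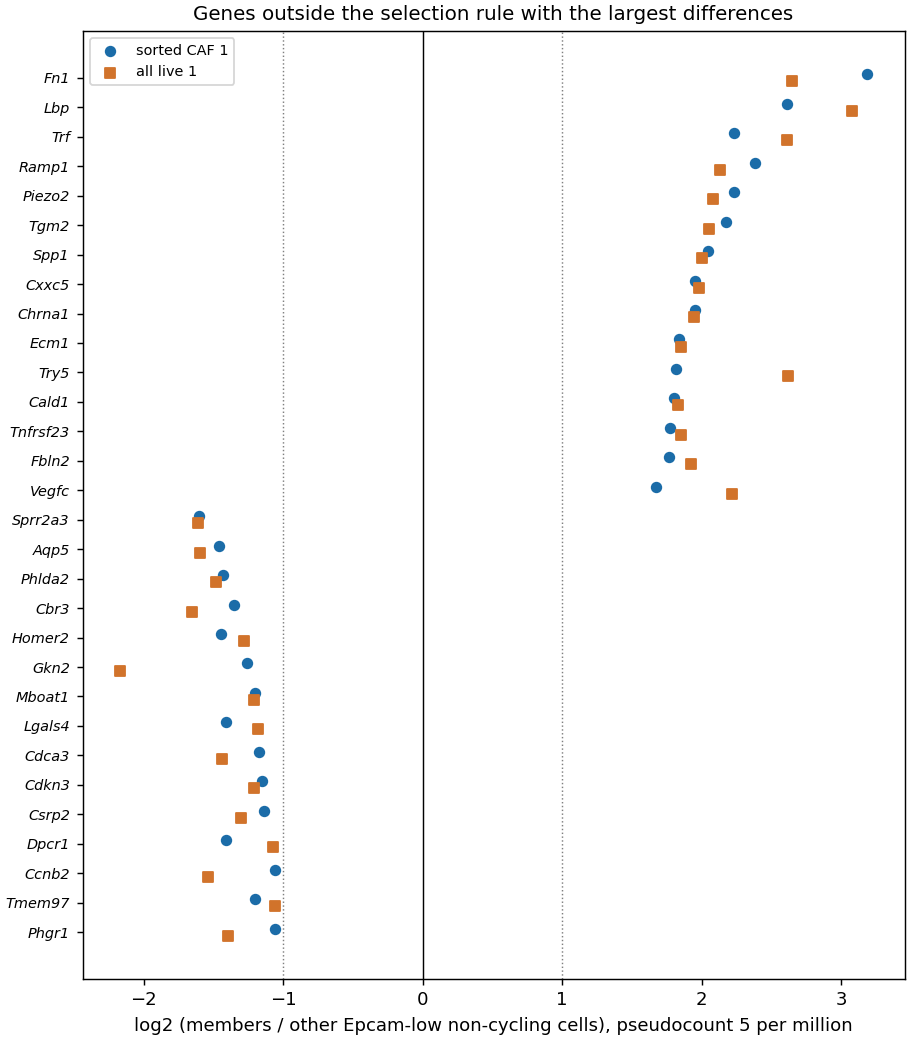
Log2 ratio of CPM (pseudocount 5) in members over other Epcam-low non-cycling cells, for the 15 genes with the largest difference in each direction, in sorted CAF 1 (circles) and all live 1 (squares). Dotted lines mark 2-fold; both libraries lie on the same side for every gene, from Fn1 at 3.19 and 2.65 to Gkn2 at -1.26 and -2.17.

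On the lower side stood gastric-type mucosal genes. Gkn2, a secreted gastrokine of the stomach surface, was at 282 (269 to 295) and 165 (155 to 175) in members, against 681 (661 to 701) and 760 (741 to 779) in the other Epcam-low cells. Lgals4, a galectin of the gut epithelium, was at 255 and 310 in members, against 683 and 708. Of 11 measured genes of the gastric surface-cell list, 10 were lower in members in both libraries (of all genes, 3646 of 10490). Of these 10, 3 were 2-fold lower (Gkn2, Lgals4 and Phgr1), and none of the 11 was 2-fold higher. With each cell of both sets thinned at random to 4000 UMIs, the smaller log2 ratio was -0.98 for Lgals4 and -0.48 for Phgr1, and Gkn2 alone of the 3 stayed 2-fold lower. With the rule applied to the thinned cells instead, which gave 1070 members, they were -0.71 and -0.23. The list's median log2 ratio was -0.47 and -0.79, against 0.01 and 0.06 for all genes. Tff1, a trefoil peptide, was at 3226 and 2424 in members, against 6275 and 7757 in the other cells. Ctse, the aspartic protease cathepsin E, went the other way, at 975 and 969 in members, against 662 and 627.

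Further lower genes were the water channel Aqp5, at 81.7 and 59.0 in members against 233 and 189 in the other cells, and the imprinted gene Phlda2, at 69.0 and 60.3 against 195 and 177. The carbonyl reductase Cbr3 was at 42.9 and 29.7 in members, against 118 and 104. The scaffold gene Homer2 stood at 12.4 and 13.9, against 42.3 and 40.9. Sprr2a3, Mboat1, Csrp2, Dpcr1 and Tmem97 were the others among the leading 15, with log2 ratios between -1.61 and -1.06. Among all 15 leading lower genes, 6 were under 2-fold in at least 1 library with the same cells thinned to 4000 UMIs, and 11 with the rule applied to the thinned cells. Of the 15 leading higher genes 0 were under 2-fold in either.

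Genes of cell division were also lower, although the rule had already taken cycling cells out of both sets. Ccnb2 (cyclin B2) was at 18.2 and 14 in members, against 43.2 and 50.3 in the other Epcam-low cells. Cdca3 and Cdkn3 were 2-fold lower too. With the same cells thinned to 4000 UMIs none of these 3 was 2-fold lower in both libraries: the smaller log2 ratio was -0.74 for Ccnb2, -0.80 for Cdca3 and -0.97 for Cdkn3. With the rule applied to the thinned cells they were -0.48, -0.94 and -0.96. In cells with Malat1 at or over the median that of Cdca3 was 0.057. Of 16 DNA replication genes outside the rule, 14 were lower in members in both libraries (of all genes, 3646 of 10490). The helicase subunit gene Mcm3 alone was 2-fold lower, at 18.8 and 20.9 against 53.3 and 47.0. The median log2 ratio of the 16 genes was -0.59 and -0.37.

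The lists that carry the neuroendocrine name showed no gene at 2-fold outside the rule. Of the dense-core granule and prohormone list, 7 genes outside the rule were measured, none 2-fold in either direction, with a median log2 ratio of -0.11 and 0.26. Pam, which amidates peptide hormones and neuropeptide Y among them, was at 109 and 162 in members, against 99.0 and 126 in the other Epcam-low cells. Scg3, Scg5 and Pcsk1, a secretogranin, the chaperone 7B2 and a prohormone convertase, had no UMI in members. Pyy and Ppy, which encode the sister peptides of neuropeptide Y, and its receptor Npy2r were at 0 too, and none of the family's other genes reached the entry level.

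Among synaptic genes 7 were measured and none was 2-fold in either direction, with medians of 0.32 and 0.47. Snap25, part of the fusion complex of secretory vesicles, was at 17.7 and 20.6 in members, against 8.26 and 8.57 in the other cells (log2 0.78 and 0.91). Of 5 measured neuronal genes 1 was 2-fold higher, the adhesion molecule Ncam1, at 17.9 and 16.9 in members against 1.35 and 2.30. With cells thinned to equal depth, Ncam1 had a UMI in 5.14% and 5.62% of members, so few cells set its level. The shares were 0.285% and 0.543% in the other Epcam-low cells and 18.2% and 23.5% in fibroblasts. In all live 1 they were 15.4% in Epcam-rich cells and 0% in leukocytes. Stmn2, a tubulin-binding protein of neurons, was lower, at 15.7 and 14.7 in members against 27.9 and 43.8. S100b, which is also a Schwann cell marker, was at 18.2 and 18.8 in members against 2.85 and 5.12, while the Schwann marker Sox10 was at 0.

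Of 15 measured keratin and junction genes outside the rule none was 2-fold in either direction, with medians of -0.13 and 0.00. In both libraries 6 were higher in members and 7 lower, against 4594 and 3646 of all 10490 genes. Krt19 stood at 1907 and 1841 in members, against 2640 and 2484 in the other cells, and the cadherin Cdh1 at 113 and 122 against 103 and 115. Of 17 foregut transcription factors, the 1 at 2-fold was Sox9, a factor of pancreatic progenitor and duct cells, at 44.4 and 46.6 in members against 13.7 and 7.29 in the other cells. The endoderm factors Foxa2 and Gata6 were at 75.7 and 77.9, and 115 and 123, in members, against 67.3 and 61.4, and 130 and 113.

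Of 14 measured genes of epithelial-mesenchymal transition, 10 were higher in members in both libraries and 2 lower (of all 10490 genes, 4594 and 3646). The medians were 0.39 and 0.49. At 2-fold, 3 of the 14 were higher and none lower (of all 10490 genes, 93 and 23). They were Fn1, the repressor Zeb2, at 12.2 and 13.7 in members against 1.2 and 3.07 in the other cells, and the mesenchymal cadherin Cdh2, at 37.5 and 39.4 against 16.1 and 12.9. Vim, the mesenchymal filament vimentin, was at 2417 and 2297 in members, against 2326 and 2475. Of 15 TGF-beta and BMP genes 14 were higher in members in both libraries (of all genes, 4594 of 10490). None was 2-fold in both, and the medians were 0.52 and 0.66. The ligand gene Tgfb1 was at 146 and 183 in members, against 94.4 and 94.9, and Id1, a target of BMP signalling, was the exception at 128 and 136, against 242 and 188. Outside these lists the secreted BMP antagonist Grem1, the ligand Wnt5a, its carrier Wls and the growth factor Pdgfa were 2-fold higher too, with log2 ratios between 1.09 and 1.55; these 4 were chosen after their values were seen.

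Stress and hypoxia genes were slightly higher together. Of 20 immediate early and dissociation genes 19 were higher in members in both libraries (of all genes, 4594 of 10490), with medians of 0.52 and 0.68. The phosphatase Dusp1 alone reached 2-fold, at 293 and 349 in members against 138 and 130 in the other cells. The genes of this list also respond to tissue digestion, and their part in the other differences was not tested. Of 21 glycolysis and hypoxia genes 18 were higher in both libraries (of all genes, 4594 of 10490). None was 2-fold in both, and the medians were 0.35 and 0.39. Vegfa was at 108 and 111 in members, against 59.5 and 51.1. Of 5 measured MHC class I genes all were higher in both libraries (of all genes, 4594 of 10490). H2-T23 was 2-fold higher, at 69.0 and 69.3 in members against 23.4 and 29.7. Of 8 squamous genes 1 was 2-fold lower, Sprr2a3, while Sprr1a was at 1589 and 1563 in members against 750 and 793 (log2 1.08 and 0.97).

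**Figure D3:**
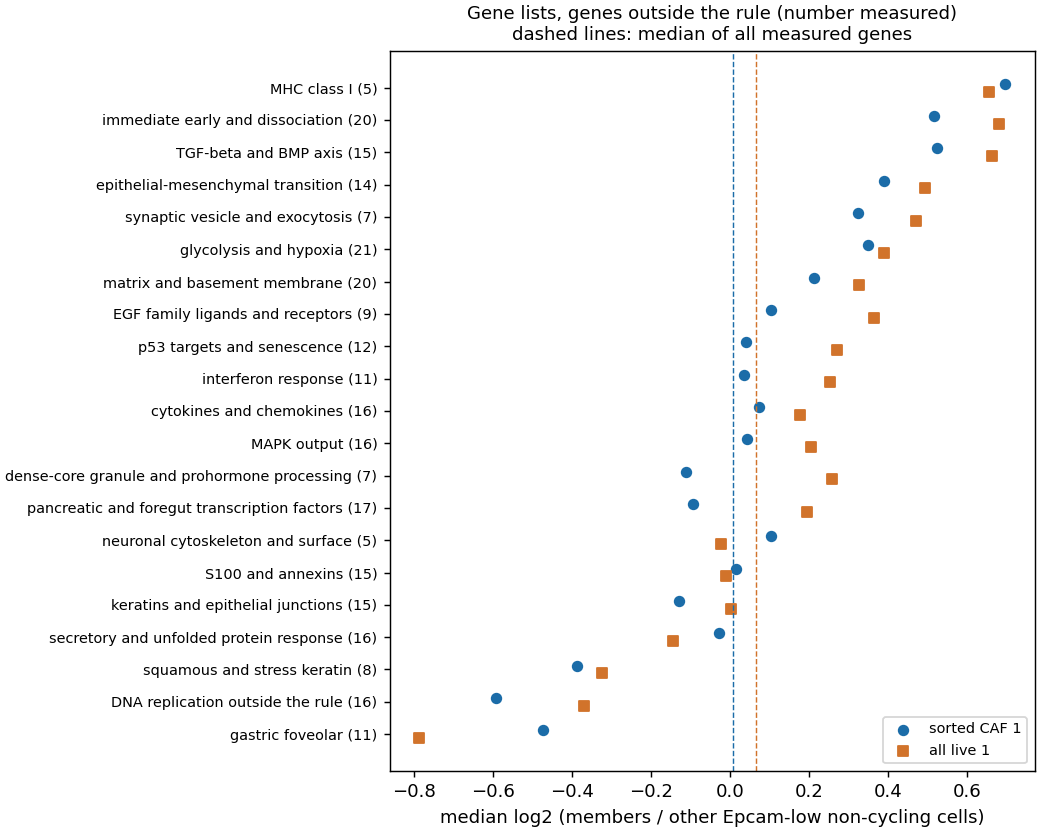
Median log2 ratio of members over other Epcam-low non-cycling cells for each gene list with 5 or more measured genes outside the rule (number in brackets), in sorted CAF 1 (circles) and all live 1 (squares). Dashed lines are the medians of all genes, 0.01 and 0.06; MHC class I, immediate early and TGF-beta lists lie to the right and gastric surface-cell, DNA replication and squamous lists to the left.

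The remaining lists held few or no genes at 2-fold. Of 20 measured matrix and basement membrane genes 16 were higher in both libraries (of all genes, 4594 of 10490). None was 2-fold in both, and the medians were 0.21 and 0.33. In the cytokine list Spp1 was the 1 of 16 at 2-fold. No gene was at 2-fold in both libraries among 16 of the secretory stress list (medians -0.03 and -0.15), 16 of MAPK output (0.04 and 0.21), 9 of the EGF family (0.10 and 0.36), 12 p53 targets (0.04 and 0.27), 11 interferon genes (0.03 and 0.25) and 15 S100 and annexin genes (0.01 and -0.01).

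Along the score, Fn1, Spp1 and Trf had their largest difference between neighbouring groups at a score of 10 or more, 246 cells in sorted CAF 1 and 198 in all live 1, while several of the lower genes were already lower from 5 or 7. Fn1 was at 338 and 435 there, at 67.9 and 98.0 in members from 7 to under 10, at 21.6 and 70.5 in members from 5 to under 7, and at 16.5 and 31.5 in the cells from 3 to under 5 just outside. Spp1 was at 13765 and 12488 in the top group and at 3429 and 2995 in members from 5 to under 7, against 2012 and 2236 in cells from 3 to under 5. Tff1 ran the other way, at 1375 and 1194 in the top group, against 5713 and 7319 in cells from 3 to under 5. Aqp5 was at 47.0 and 20.6 in the top group and already at 50.9 and 94.1 from 7 to under 10, against 189 and 195 in cells from 3 to under 5. Lgals4 was at 157 and 184 in the top group and at 355 and 535 from 5 to under 7, against 634 and 547 in cells from 3 to under 5. Gkn2 was at 58.3 and 85.0 in the top group, at 556 and 221 from 7 to under 10 and at 481 and 270 from 5 to under 7. In cells from 3 to under 5 Gkn2 was at 490 and 690, so in sorted CAF 1 it was clearly lower only in the top group. Onecut2 was at 656 and 739 in the top group and at 361 and 467 in members from 5 to under 7, against 365 and 372 in cells from 3 to under 5 and 235 and 259 in those under 1. Malat1 was at 54904 and 35135 in the top group, against 16104 and 10295 in cells from 3 to under 5, and the median depth was 12280.5 and 13965.5 UMIs, against 19433.5 and 19671.5.

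**Figure D4:**
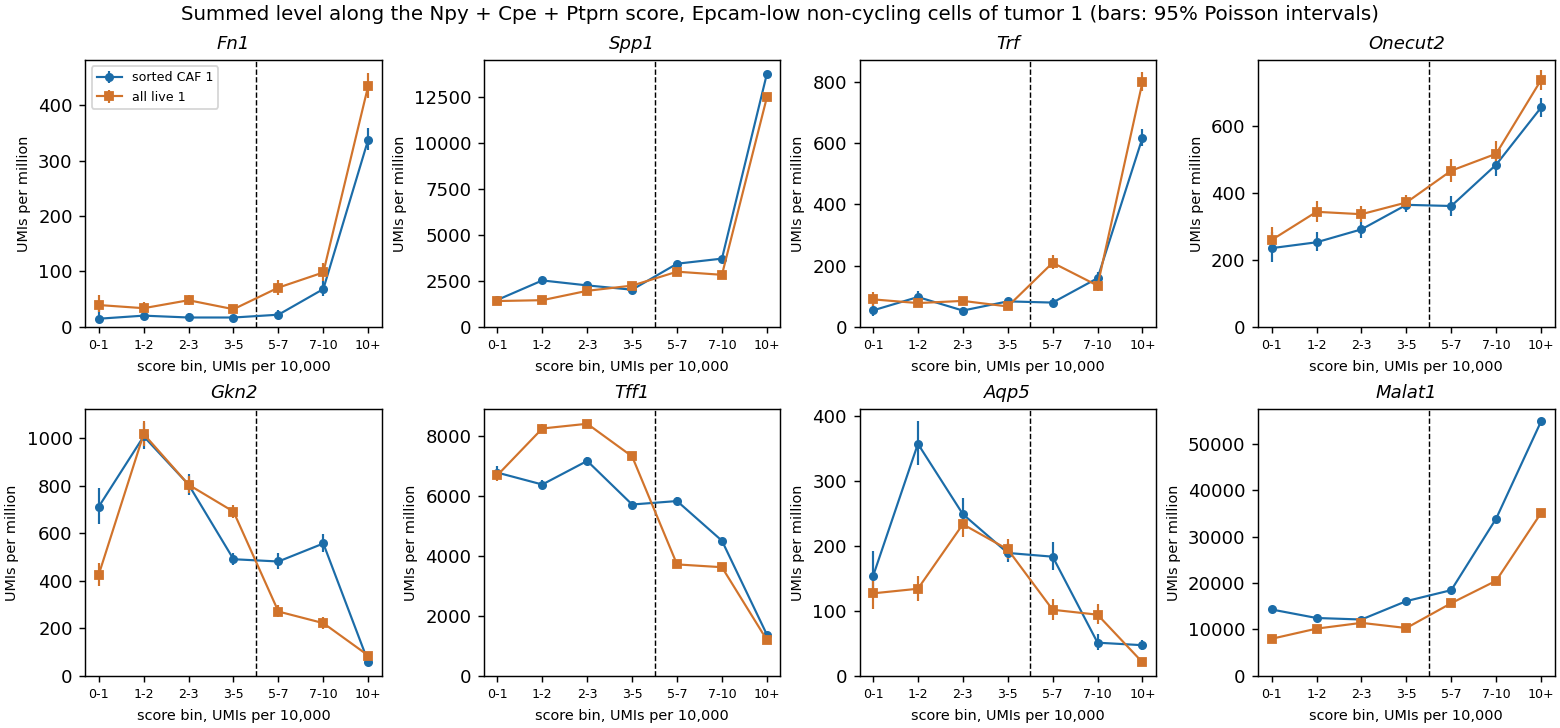
CPM of 8 genes (vertical axes, from 0) summed over Epcam-low non-cycling cells in 7 bins of the score (horizontal axes), in sorted CAF 1 (circles) and all live 1 (squares), with 95% Poisson intervals. The dashed line is the threshold of 5; Fn1, Spp1 and Trf are highest in the last bin, where Gkn2 and Tff1 are lowest.

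Cycling Epcam-low cells, which the rule did not take, were split at the same score of 5. Of them 54 of 248 in sorted CAF 1 (21.8%) and 35 of 239 in all live 1 (14.6%) were at or over it. At 2-fold in both libraries, 9 of 9397 genes were higher at or over the score (0.0958%) and 7 lower (0.0745%). Of the 93 genes higher in members, 63 were measured in cycling cells, and 56 of them (88.9%) were higher at or over the score in both libraries, against 26.6% of all genes outside the rule, and 4 were 2-fold higher. Of the 23 lower genes, 17 (73.9%) were lower in both, against 32.9% of all genes, and 3 were 2-fold lower, Phlda2, Cbr3 and Gkn2. Piezo2 was at 22.4 and 21.5 in cycling cells at or over the score, against 3.5 and 2.48 in those under it. The split uses the same score and the same libraries that gave these gene lists, so the agreement is no independent support for them. It is a second set of cells and not a second set of tumors. Here too the depth differed, with medians of 21989.5 and 24272 UMIs at or over the score, against 27469.5 and 30831.5 under it.

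Members also differed among themselves. The 65 members of each library with Npy at 5 or more per 10000 were set against the 183 and 133 members without an Npy UMI, a split chosen after the data were seen. Npy counts toward the score, and the scores of the 2 groups were not matched, so these differences are not independent of the score. Of 7820 genes, 36 were at least 2-fold higher in the Npy-high members in both libraries (0.46%) and 16 lower (0.205%). Glod5 was at 92.7 and 211 in Npy-high members, against 11.1 and 23.3 in those without Npy. Mcpt2, a gene of the mast cell protease family, was at 61.0 and 239, against 10.7 and 16.8. Fn1 was at 409 and 539, against 119 and 176, and Lbp at 139 and 201, against 42.9 and 82.2. Lower in Npy-high members were the alcohol dehydrogenase Adh7, at 4.52 and 5.0 against 79.6 and 49.0, the galectin Lgals2, at 63.3 and 47.0 against 390 and 235, and the fatty acid-binding protein genes Fabp1 and Fabp2. Onecut2, at 659 and 630 against 455 and 502, and Cpe, at 1378 and 1427 against 968 and 951, differed less than 2-fold. Malat1 medians were 557 and 324 per 10000 in Npy-high members, against 244 and 187 in those without Npy.

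Across the cell classes of tumor 1, Npy was at 284 and 327 CPM in members. It was at 46.5 and 24.3 in cycling Epcam-low cells, 15.3 and 19.2 in the other Epcam-low cells, and 4.68 and 12.1 in fibroblasts. In all live 1 it was at 80.1 in the 39 Epcam-rich cells and at 3.32 in the 347 leukocytes; sorted CAF 1 had no cell of either class. With each cell thinned to 4000 UMIs, a count no tumor 1 cell of these classes fell short of, Npy had a UMI in 38.1% and 41% of members, 9.68% and 10.04% of cycling cells, 6.84% and 5.71% of the other Epcam-low cells, 15.4% of Epcam-rich cells, 2.43% and 2.67% of fibroblasts and 1.15% of leukocytes. Fibroblasts and leukocytes, which should lack the gene, give the background for Npy. The unthinned shares were 57.2% and 62.6% in members, 3.24% and 5.35% in fibroblasts and 2.59% in leukocytes. Median depths were 13700.5 and 15538, 6812 and 8212, and 7004 UMIs. The background was higher for the other score genes. In thinned cells, Cpe had a UMI in 13.8% and 10.7% of fibroblasts, against 92.5% and 92.7% of members. Ptprn had one in 9.72% and 8.56% of fibroblasts, 17.1% and 17.9% of the other Epcam-low cells and 38.3% and 43.5% of members. In leukocytes of all live 1 the shares were 3.75% for Cpe and 2.02% for Ptprn.

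Epcam-rich cells of all live 1 came closest to members in Cpe and Spp1. Of the 39, 24 (61.5%) were at or over the score of 5. Cpe was at 1045 in members of all live 1 and at 777 (699 to 862) in its Epcam-rich cells, and Spp1 at 7727 and 6392. Ramp1 was at 35.9 in members and at 141 in Epcam-rich cells. Vim set the classes apart, at 2297 in members and 550 in Epcam-rich cells, and Fn1, at 261 in members and 1560 in Epcam-rich cells. In tumor 2, 6 of 26 Epcam-rich cells of sorted CAF 2 and 24 of 158 of all live 2 (15.2%) reached the score.

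**Figure D5:**
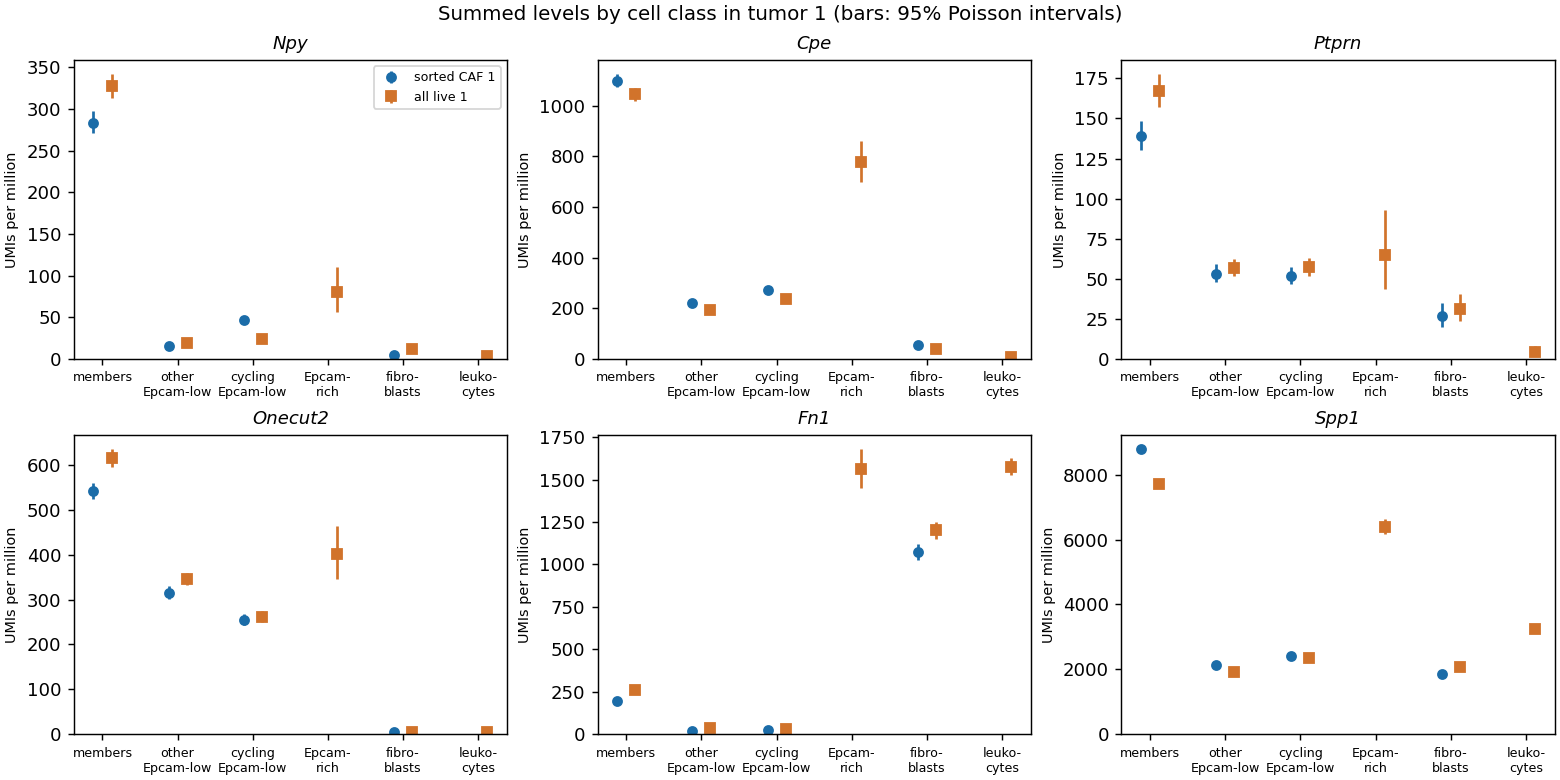
CPM of Npy, Cpe, Ptprn, Onecut2, Fn1 and Spp1 (vertical axes, from 0) summed over 6 cell classes of tumor 1, in sorted CAF 1 (circles) and all live 1 (squares), with 95% Poisson intervals; Epcam-rich cells and leukocytes were absent from sorted CAF 1. Npy and Ptprn are highest in members, while Fn1 is higher in Epcam-rich cells, fibroblasts and leukocytes than in members.

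Summed markers of other cell types differed in how they compared between members and the other Epcam-low cells. The 6 Schwann and neural markers summed to 28.1 and 29.8 CPM in members, against 13.1 and 15 in the other cells, with 3 of the 6 at 0 in members and S100b making up most of the sum. Their part in the other differences was not tested. The 15 islet and enteroendocrine markers summed to 3.76 and 11 CPM in members, against 3.60 and 4.22 in the other cells, with 10 and 9 of the 15 at 0 in members. The 8 fibroblast markers summed to 87.9 and 105 in members, against 65.5 and 119. Among them Col1a1 was at 20.5 and 34.3 in members, against 4199 and 4460 in fibroblasts. Fn1 also marks fibroblasts and leukocytes here, at 1074 and 1201 in fibroblasts and 1576 in leukocytes of all live 1. Its log2 ratio of members over other Epcam-low cells was 3.19 in sorted CAF 1 and 2.65 in all live 1. The part of fibroblast and leukocyte RNA in that ratio was not tested. The 9 macrophage and 7 neutrophil markers summed to 29.8 and 9.40 in members of sorted CAF 1, against 41.9 and 4.20 in the other cells. They summed to 199 and 191 in members of all live 1, against 201 and 181.

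Members could be compared between the fractions in tumor 1 only, with 1 library on each side, so no test or replicate check exists. Of 9140 genes, 1 was at least 2-fold higher in members of sorted CAF 1 than in those of all live 1 (0.0109%), and 41 were lower (0.449%). The higher gene was Ankrd1, at 64.3 in members of sorted CAF 1 and 28.6 in members of all live 1. The lower ones were led by Lyz2, the lysozyme of myeloid cells, at 0.470 (0.0970 to 1.37) and 90.8 (83.5 to 98.6). S100a9, Chil3, Ccl6, Wfdc17, Cxcl2, Tyrobp, S100a8, Il1b and Ctss followed. Of the 41, 29 (70.7%) were at least 10 times higher in leukocytes of all live 1 than in its members, against 1.07% of all genes. The other Epcam-low cells showed the same gap for Lyz2, at 0.450 in sorted CAF 1 and 97.5 in all live 1. The score genes differed by less than 2-fold: Npy was at 284 in members of sorted CAF 1 and 327 in members of all live 1, Cpe at 1098 and 1045, and Ptprn at 139 and 167. Outside the rule, Onecut2 was at 542 in members of sorted CAF 1 and 616 in members of all live 1, and Pdpn at 1.41 and 1.12.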

How the data were processed

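Per the labels' protocols, the libraries were made with 10x Genomics Single Cell 3' chemistry. The authors deposited raw UMI counts for each gene and cell barcode, made with CASAVA 1.4 and Cell Ranger 2.0.0 per the submitters' processing notes. How cell barcodes were called is not stated in the notes used here. The design text names technical replicates, which the 4 libraries do not tell apart. The deposited gene and barcode tables hold names only, which is other text with no measurement. Members were found by the stated thresholds on the raw counts. Other classes were set by simple thresholds and are not an annotation by the authors: the remaining Epcam-low non-cycling cells, cycling Epcam-low cells (5 or more of the 8 cycle genes), Epcam-rich cells (Epcam at 3 or more per 10000), fibroblasts and leukocytes.

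Raw counts were summed over the cells of a set within a library and scaled to CPM (counts per 1000000 UMIs of that set). Log2 ratios use a pseudocount of 5 CPM, and genes entered with at least 20 UMIs over both sets in each library used. A gene was counted as higher or lower at 2-fold or more in the same direction in both libraries of tumor 1. Genes of the selection rule and mt- genes were left out of those counts. Intervals are 95% exact Poisson intervals for levels and Clopper-Pearson intervals for shares. They cover counting error only. Reads of near-identical genes can be split in the counting, so Try5, Mcpt1, Mcpt2, Klra4 and Sprr2a3, each of a family of close copies, are uncertain. Named genes are the rule genes, the genes of the lists, and the 15 with the largest fold each way, ranked by the smaller fold of the libraries. Between the fractions the 10 with the largest fold each way were taken, among genes with 50 or more UMIs. The members and the lists were chosen with earlier results of these data known, so no pattern shown here is independent support for them. A fit with edgeR 4.0.16 over both tumors, which the design called for between the fractions, was not possible with 9 and 3 members in tumor 2, and edgeR supplied scaling factors only. Doublets were scored with scanpy 1.11.5 and left out only in an alternative. Of the marker genes, Trbc2 was not found under this symbol. The calling of genes at 2-fold was tested on simulated counts before use.

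Promoters (250 bases before to 50 after a start site) are from RefSeq on GRCm38.p6, the same assembly as the mm10 build of the submitters' processing notes. Of the 93 genes higher in members 64 matched by symbol, and of the 23 lower 19. An allele and some genes of the lists are not reported here.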

Additional observations from a re-analysis of the deposited data

How the results depend on the processing

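Each result was recomputed with 1 choice changed at a time. With the score threshold at 3, members were 76.0% and 70.2% of the Epcam-low non-cycling cells of sorted CAF 1 and all live 1, and 7 genes were 2-fold lower. At 10 there were 449 members (31.6% and 27.3%), 170 higher and 97 lower genes. Against the 39 and 23 other cells with no UMI of the 3 score genes, 711 were higher and 57 lower; that side holds fewer cells and UMIs. A pseudocount of 1 gave 221 higher and 64 lower genes, and between the fractions 7 and 62. With 1 library left out, and so a single library deciding, higher genes ranged from 130 (without all live 1) to 163 (without sorted CAF 1) and lower from 45 to 48. Restricting to cells with Malat1 under the median, an alternative added after seeing the data like the 2 other subsets of cells, the thinning of the same cells and the leaving out of Malat1 and mt- genes from the totals, gave 10 higher and 7 lower. The cause of these shifts was not tested. Of 625 recomputed values of the 30 named genes, 553 kept their direction and 2-fold call, 70 fell under 2-fold and 2 reversed: Dpcr1 against cells with no score UMI (0.37) and Cdca3 with Malat1 at or over the median (0.057). TMM scaling moved all log2 ratios by -0.014 in sorted CAF 1 and -0.125 in all live 1 and ended no call of a named gene. Leaving out doublets took out 5 and 4 members of these libraries. No paired analysis was possible because tumor 1 alone had 20 or more members in both fractions. For that reason the fits with a replicate block, DESeq2, another filter and left-out replicates between the fractions were not run.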
